A study of Homo sapiens with 4 samples.

Results

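The genes described here are 38 names of chaperones, folding enzymes, stress sensors and degradation factors of the endoplasmic reticulum (ER), read by gene symbol from a table of 17791 genes. They gave 37 rows, because SELENOS and VIMP name the same gene and only SELENOS has a row. Of these, 36 had at least 1 CPM (counts per 1000000 of the scaled library size) in 1 or more libraries and are called tested below, and all 36 were above that level in every library. The remaining gene, DERL3, a paralogue of the Derlin channel proteins, had 1 count in 2D coculture and 0 in each EPCaT, where a count of 0 allows up to 0.180, 0.193 and 0.219 CPM in PF, in PF+2%PEGDA and in PF+3%PEGDA.

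RNA was sequenced from 3 engineered prostate cancer tissues (EPCaTs) and from 1 flat coculture of the same cell lines. PC-3 is a line from a bone metastasis of prostate cancer, and BJ-5ta is a line of normal skin fibroblasts immortalised with telomerase. Each EPCaT held both lines at 5 PC-3 to 1 BJ-5ta and a density of 20 × 1000000 cells per mL in poly(ethylene glycol)-fibrinogen (PF), with no excess poly(ethylene glycol) diacrylate (PEGDA) in the PF EPCaT, 2% PEGDA (w/v) in the PF+2%PEGDA EPCaT, and 3% for the PF+3%PEGDA EPCaT. Excess PEGDA was added to tune the mechanics of the gel, and the tissues were collected on day 15. The 2D coculture held PC-3 and BJ-5ta without a gel, and the sources used here give neither its cell ratio nor its day. Below, PF alone, PF+2%PEGDA or PF+3%PEGDA stands for that tissue and 2D for the flat coculture. No group received a drug, each EPCaT library pooled more than 2 tissues, and each group was a single library. The 4 libraries held 13760289 to 15687910 counts, so that 1 count was worth 0.0599 to 0.0731 CPM.

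Single libraries allow no test of the groups, so no p-value is given. Each log2 ratio carries an exact 95% interval that covers counting error only. A gene is called higher or lower where 2 libraries were 2-fold or more apart and the interval excluded equality. In bulk RNA, fewer cells of a type and less RNA per cell cannot be told apart. All 3 EPCaTs were set against the same 2D library, so the 3 comparisons share it.

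Proteins bound for secretion enter the ER through the translocon and fold there with the help of chaperones, disulfide isomerases and prolyl isomerases. Chains that fail to fold are sent back to the cytosol and degraded, a route called ER-associated degradation. When unfolded chains build up, the sensors IRE1 (gene ERN1), ATF6 and PERK (gene EIF2AK3) start the unfolded protein response, in which spliced XBP1, cleaved ATF6 and ATF4 switch on chaperone and degradation genes. Fibroblasts and other secreting cells carry a large load of such proteins, collagen among them.

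Promoters of several of these genes carry short elements through which ATF6 and XBP1 act, and 5 are shown: 4 from genes lower in all 3 EPCaTs, and that of XBP1, a gene with such an element that was not. The sequences are the stretch from 250 bases before the RefSeq transcript start to that start, cut where it enters the gene as GENCODE release 29 draws it, on GRCh38.p14. They are written 5′ to 3′ on the gene's strand, with the letters of the elements in capitals. The ER stress response element (ERSE) was searched as CCAAT, 9 bases of any kind and CCACG, and ERSE-II as ATTGG, 1 base and CCACG. The unfolded protein response element (UPRE) was searched as TGACGTGG. Both strands were searched, so an element on the other strand reads as its reverse complement, CGTGG before ATTGG for ERSE and CGTGG before CCAAT for ERSE-II. In HYOU1 the UPRE and the first ERSE-II overlap. The first 4 below belong to the genes lower in all 3 EPCaTs.
HSPA5 (chr9:125241344-125241593, minus strand): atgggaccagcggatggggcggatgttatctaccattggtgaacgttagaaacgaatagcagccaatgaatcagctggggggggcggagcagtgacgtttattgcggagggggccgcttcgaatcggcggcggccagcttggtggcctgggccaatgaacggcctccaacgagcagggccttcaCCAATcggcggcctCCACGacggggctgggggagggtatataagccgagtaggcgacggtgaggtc
CALR (chr19:12938359-12938577, plus strand): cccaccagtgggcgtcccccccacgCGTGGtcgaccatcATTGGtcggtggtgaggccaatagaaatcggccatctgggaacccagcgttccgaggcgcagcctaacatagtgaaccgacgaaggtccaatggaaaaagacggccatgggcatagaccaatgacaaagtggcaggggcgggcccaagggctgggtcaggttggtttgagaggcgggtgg
HERPUD1 (chr16:56931892-56932047, plus strand): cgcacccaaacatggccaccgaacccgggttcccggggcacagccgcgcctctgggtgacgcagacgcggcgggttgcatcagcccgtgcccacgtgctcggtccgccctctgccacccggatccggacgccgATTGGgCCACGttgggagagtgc
HYOU1 (chr11:119057206-119057455, minus strand): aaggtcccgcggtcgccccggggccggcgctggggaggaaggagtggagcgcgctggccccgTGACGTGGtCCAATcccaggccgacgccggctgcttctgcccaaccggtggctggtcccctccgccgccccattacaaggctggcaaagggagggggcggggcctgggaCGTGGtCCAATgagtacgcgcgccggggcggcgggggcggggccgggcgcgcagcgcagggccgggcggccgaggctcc
XBP1 (chr22:28800598-28800819, minus strand): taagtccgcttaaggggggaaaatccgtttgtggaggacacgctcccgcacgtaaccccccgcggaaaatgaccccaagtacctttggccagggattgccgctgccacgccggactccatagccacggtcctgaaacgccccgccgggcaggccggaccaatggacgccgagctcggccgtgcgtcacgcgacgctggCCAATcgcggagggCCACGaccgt

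Nearly all ER folding genes lay below 2D coculture in the EPCaTs, with MANF furthest below in each. Of 36 tested genes, 22 were lower in PF, 18 in PF+2%PEGDA and 16 in PF+3%PEGDA, and 0 were higher in any of them. Among all 14856 tested genes, 12.3%, 9.65% and 10.7% were lower in these EPCaTs and 16.2%, 12.3% and 11.8% were higher. The median log2 ratio to 2D was -1.26, -1.03 and -0.89 in PF, in PF+2%PEGDA and in PF+3%PEGDA, beside 0.01, -0.0045 and -0.01 over all tested genes. In all 3 EPCaTs 16 of the 36 were lower, against 6.2% of all tested genes, and 0 were higher, against 7.73%. A ratio below 0 was found for 34, 33 and 32 of the 36 in the 3 EPCaTs, against 7383, 7461 and 7533 of all 14856 tested genes. In the same libraries the summed level of 18 fibroblast markers was 1454, 1229.5 and 954 CPM in PF, in PF+2%PEGDA and in PF+3%PEGDA, against 4700.2 CPM in 2D. Their part in the ER folding differences was not tested.

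The genes together took 0.866% of counts in the PF EPCaT (exact 95% interval 0.862 to 0.871), 0.951% in PF+2%PEGDA (0.947 to 0.956) and 0.976% in PF+3%PEGDA (0.971 to 0.981), against 2.38% in 2D coculture (2.37 to 2.39). The 16 genes lower in all 3 EPCaTs made up 54.0%, 52.7% and 50.2% of these counts in PF, in PF+2%PEGDA and in PF+3%PEGDA, against 75.0% in 2D. The 16 were picked by these same levels, so a smaller share in the EPCaTs follows from the choice and is no further result. Levels per kilobase used the longest transcript of each gene in the basic set of GENCODE release 29, and other transcript lengths were not tried. On that measure CALR was the most abundant of the genes in the PF EPCaT (509 CPM per kb), in PF+2%PEGDA (526) and in 2D (2649.7). In the PF+3%PEGDA EPCaT P4HB came first at 586 CPM per kb, with CALR at 513, while in 2D coculture P4HB was the fourth at 718.

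**Figure D1:**
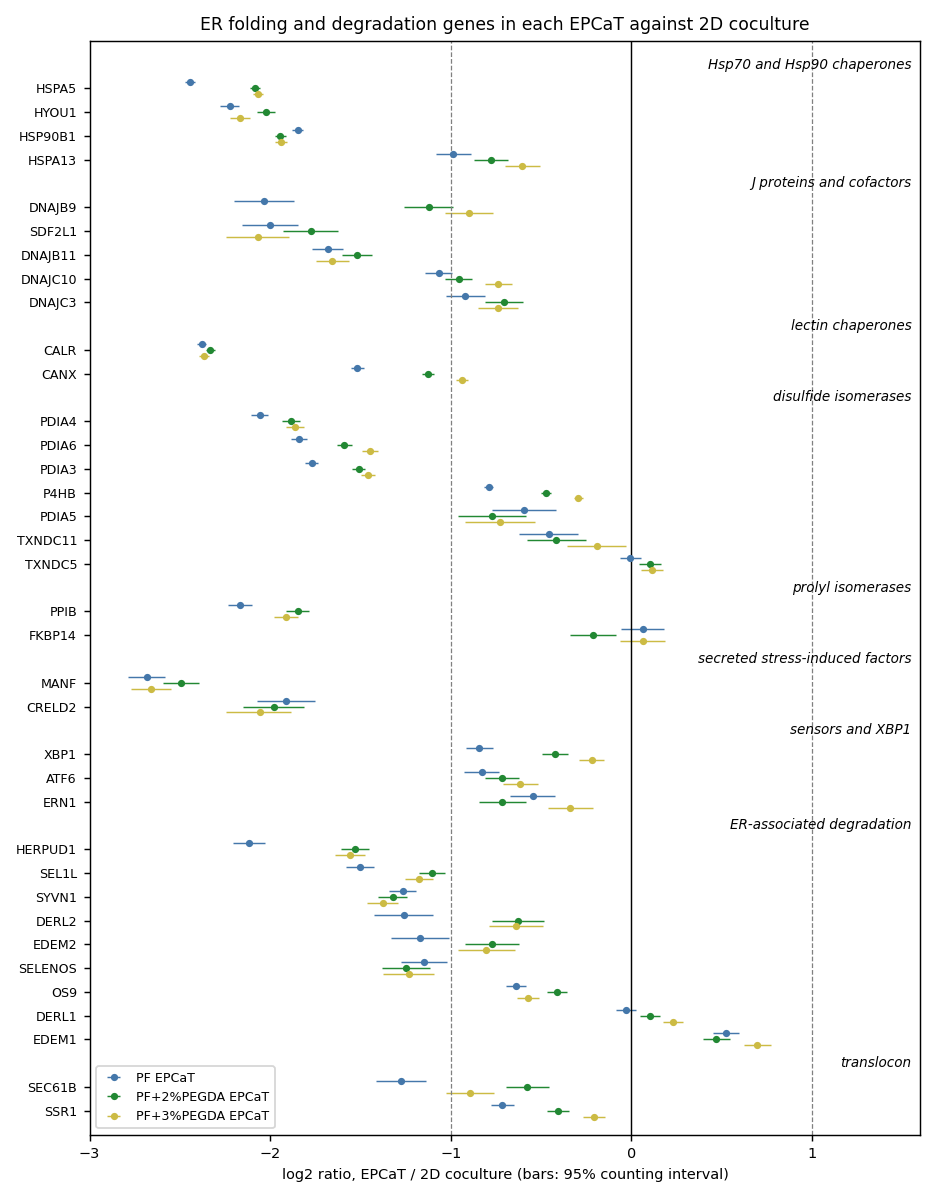
Log2 ratio of each EPCaT to 2D coculture (x axis) for the 36 tested ER folding genes (y axis), grouped by role, with bars for the exact 95% counting interval and dashed lines at 2-fold. HSPA5, HYOU1, HSP90B1, CALR and MANF lie well left of the lower dashed line in all 3 EPCaTs, and EDEM1 lies furthest right, at 0.47 to 0.70.

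Of 4 Hsp70 and Hsp90 chaperones, 3 were lower in all 3 EPCaTs. HSPA5 (chr9:125234853-125241330, GRCh38), which encodes BiP, the Hsp70 that binds unfolded chains and holds the sensors inactive, measured 755 CPM in PF, 969 in PF+2%PEGDA and 979.9 in PF+3%PEGDA, against 4109 CPM in 2D. All 3 EPCaTs lay far below 2D, with log2 ratios of -2.44 (interval -2.47 to -2.42), -2.08 (-2.11 to -2.06) and -2.07 (-2.10 to -2.04), or 4.19- to 5.44-fold. HSP90B1 (chr12:103930107-103953645), the gene of GRP94, an Hsp90 that folds integrins and Toll-like receptors, measured 711 CPM in PF, 666 in PF+2%PEGDA and 666 in PF+3%PEGDA, against 2562 CPM in 2D. Its 3 EPCaT levels were close together and 3.60- to 3.85-fold below 2D. HYOU1 (chr11:119044189-119057202), a large Hsp70 relative that exchanges nucleotide on BiP, measured 235 CPM in PF, 270.4 in PF+2%PEGDA and 245 in PF+3%PEGDA, against 1099 CPM in 2D, and was 4.07- to 4.67-fold lower. HSPA13, an Hsp70 relative of microsomes, measured 82.0 CPM in PF, 94.8 in PF+2%PEGDA and 107 in PF+3%PEGDA, against 163 CPM in 2D. Its log2 ratios of -0.99, -0.78 and -0.60 were all below 0 and short of 2-fold.

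Among the 5 J proteins and cofactors, which deliver clients to BiP and stimulate its ATPase, DNAJB11 and SDF2L1 were lower in all 3 EPCaTs. DNAJB11 (ERdj3) measured 89.1 CPM in PF, 99.7 in PF+2%PEGDA and 90.8 in PF+3%PEGDA, against 286 CPM in 2D. SDF2L1, a partner of DNAJB11, measured 25.8 CPM in PF, 30.2 in PF+2%PEGDA and 24.6 in PF+3%PEGDA, against 103 CPM in 2D, a difference of 3.42- to 4.19-fold. Between EPCaTs both stayed well within 2-fold, with a ratio of PF+2%PEGDA to PF of 0.16 (0.06 to 0.27) for DNAJB11 and of PF+3%PEGDA to PF+2%PEGDA of -0.29 (-0.50 to -0.09) for SDF2L1. DNAJB9 (ERdj4), which brings BiP to IRE1, measured 22.9 CPM in PF, 43.0 in PF+2%PEGDA and 50.3 in PF+3%PEGDA, against 93.7 CPM in 2D. It passed the limit in PF (-2.03) and in PF+2%PEGDA (-1.12), and its ratio in PF+3%PEGDA was -0.90. DNAJC10, a J protein that also reduces disulfide bonds, measured 138 CPM in PF, 149 in PF+2%PEGDA and 174 in PF+3%PEGDA, against 289.5 CPM in 2D, and passed the limit in the PF EPCaT with a log2 ratio of -1.07. DNAJC3, a J protein also known as P58IPK, had ratios of -0.92, -0.71 and -0.74 in PF, in PF+2%PEGDA and in PF+3%PEGDA.

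The lectin chaperones calreticulin and calnexin hold glycoproteins by their trimmed sugars, and both genes were below 2D in every EPCaT. CALR (chr19:12938578-12944489) measured 968 CPM in PF, 1002 in PF+2%PEGDA and 976 in PF+3%PEGDA, against 5042 CPM in 2D. Its 3 EPCaT levels were almost the same, with log2 ratios of -2.38 (-2.41 to -2.36), -2.33 (-2.36 to -2.31) and -2.37 (-2.40 to -2.34), or 5.03- to 5.21-fold. CANX, whose protein is anchored in the membrane, measured 489.6 CPM in PF, 642 in PF+2%PEGDA and 732 in PF+3%PEGDA, against 1402 CPM in 2D. It passed the limit in PF (-1.52) and in PF+2%PEGDA (-1.13), while its ratio of -0.94 in PF+3%PEGDA missed 2-fold.

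The 7 disulfide isomerases were graded from well below 2D to level with it. PDIA4 (ERp72), PDIA6 (P5) and PDIA3 (ERp57, which works with the lectin chaperones) were lower in all 3 EPCaTs. PDIA4 measured 256 CPM in PF, 289 in PF+2%PEGDA and 294 in PF+3%PEGDA, against 1067 CPM in 2D. PDIA6 measured 309 CPM in PF, 368 in PF+2%PEGDA and 407 in PF+3%PEGDA, against 1108 CPM in 2D. PDIA3 measured 471 CPM in PF, 564 in PF+2%PEGDA and 585 in PF+3%PEGDA, against 1607 CPM in 2D. Across these 3 genes the EPCaTs lay 2.72- to 4.17-fold below 2D. P4HB, which encodes protein disulfide isomerase itself and is also a subunit of collagen prolyl hydroxylase, measured 1079.8 CPM in PF, 1346 in PF+2%PEGDA and 1525 in PF+3%PEGDA, against 1869 CPM in 2D. Its log2 ratios were -0.79, -0.47 and -0.29 in PF, in PF+2%PEGDA and in PF+3%PEGDA, so it was not lower in any. PDIA5 had ratios of -0.77 to -0.59, below 2D in all 3 EPCaTs and short of 2-fold, and TXNDC11, an oxidoreductase that binds EDEM proteins, of -0.46 to -0.19. TXNDC5, another disulfide isomerase, was level in all 4 libraries, at 286 CPM in PF, 308 in PF+2%PEGDA and 310.3 in PF+3%PEGDA, against 287 CPM in 2D.

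Of the prolyl isomerases, which turn proline bonds during folding, PPIB was lower in all 3 EPCaTs and FKBP14 in none. PPIB (cyclophilin B, which acts on collagen) measured 142 CPM in PF, 177 in PF+2%PEGDA and 169.5 in PF+3%PEGDA, against 639 CPM in 2D, or 3.60- to 4.49-fold lower. FKBP14 measured 75.4 CPM in PF, 62.4 in PF+2%PEGDA and 75.4 in PF+3%PEGDA, against 72.2 CPM in 2D. Both genes of secreted factors that rise under ER stress were lower. MANF (chr3:51385047-51389397), a factor that binds BiP and protects neurons, measured 55.9 CPM in PF, 63.8 in PF+2%PEGDA and 56.8 in PF+3%PEGDA, against 359 CPM in 2D. It had the lowest ratio of the 36 genes in each EPCaT, at -2.68 (-2.79 to -2.58), -2.49 (-2.59 to -2.39) and -2.66 (-2.77 to -2.55). CRELD2 measured 25.3 CPM in PF, 24.1 in PF+2%PEGDA and 22.8 in PF+3%PEGDA, against 95.2 CPM in 2D, with 3 EPCaT levels within a few CPM of each other.

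**Figure D2:**
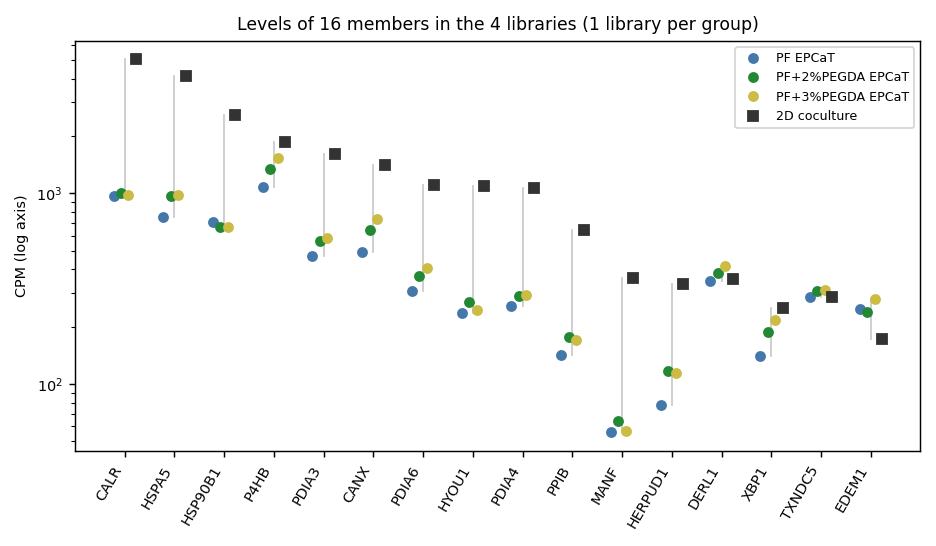
Level in CPM (log axis) of 16 of the genes in the 4 libraries, each point being 1 library, with circles for the EPCaTs and squares for 2D coculture. The square stands above the 3 circles for the genes from CALR to HERPUD1 and for XBP1, and below or among them for DERL1, TXNDC5 and EDEM1.

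Of the sensors ERN1 and ATF6 and the factor XBP1, 0 of 3 were lower in any EPCaT. ERN1, the kinase and nuclease that splices XBP1, measured 57.0 CPM in PF, 50.8 in PF+2%PEGDA and 65.9 in PF+3%PEGDA, against 83.3 CPM in 2D. ATF6, the membrane-bound factor that is cut in the Golgi, measured 87.3 CPM in PF, 94.4 in PF+2%PEGDA and 101 in PF+3%PEGDA, against 155 CPM in 2D. XBP1 (chr22:28794555-28800597), whose spliced form activates chaperone and degradation genes, measured 140.5 CPM in PF, 188 in PF+2%PEGDA and 216 in PF+3%PEGDA, against 252 CPM in 2D. Its log2 ratios were -0.84 (-0.92 to -0.77), -0.42 (-0.49 to -0.35) and -0.22 (-0.29 to -0.15). Counts per gene do not separate spliced from unspliced XBP1, nor active from inactive ATF6. The third sensor gene, EIF2AK3, is not on the list, was picked after its values were seen and lay above 2D, with log2 ratios of 0.93, 0.71 and 0.90.

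Of 9 tested genes of ER-associated degradation, 4 were lower in all 3 EPCaTs. HERPUD1 (chr16:56932048-56944863), a stress-induced scaffold of the HRD1 ligase complex, measured 77.4 CPM in PF, 117 in PF+2%PEGDA and 114 in PF+3%PEGDA, against 336 CPM in 2D, or 2.89- to 4.34-fold lower. SYVN1, the HRD1 ligase, measured 123 CPM in PF, 118 in PF+2%PEGDA and 114 in PF+3%PEGDA, against 296 CPM in 2D. SEL1L, its adaptor, measured 113 CPM in PF, 149 in PF+2%PEGDA and 142 in PF+3%PEGDA, against 320.1 CPM in 2D. SELENOS, a selenoprotein that recruits the p97 ATPase, measured 45.6 CPM in PF, 42.5 in PF+2%PEGDA and 42.9 in PF+3%PEGDA, against 101 CPM in 2D. With libraries scaled by total counts, SEL1L was no longer lower in PF+2%PEGDA, nor SELENOS in the PF EPCaT.

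DERL2 and EDEM2 passed the limit in PF and missed it in the other EPCaTs. DERL2, a Derlin of the export channel, measured 27.8 CPM in PF, 43.0 in PF+2%PEGDA and 42.7 in PF+3%PEGDA, against 66.5 CPM in 2D, and its PF+3%PEGDA to PF ratio was 0.62 (0.44 to 0.80). EDEM2, which starts mannose trimming of misfolded glycoproteins, measured 28.7 CPM in PF, 37.9 in PF+2%PEGDA and 37.0 in PF+3%PEGDA, against 64.6 CPM in 2D, and its ratio between the same EPCaTs was 0.37 (0.18 to 0.55). OS9, a lectin that hands trimmed glycoproteins to the ligase, had log2 ratios to 2D of -0.64 to -0.41. DERL1, a paralogue of DERL2, was near 2D, at 347 CPM in PF, 380.0 in PF+2%PEGDA and 415 in PF+3%PEGDA, against 354 CPM in 2D. EDEM1, a further mannose-trimming factor, stood above 2D in every EPCaT, at 249 CPM in PF, 239.7 in PF+2%PEGDA and 281 in PF+3%PEGDA, against 173 CPM in 2D. It was the only one of the 36 with a ratio above 0 in all 3, at 0.52 (0.45 to 0.59), 0.47 (0.40 to 0.54) and 0.70 (0.62 to 0.77), short of 2-fold. Of all tested genes, 36.7% had a ratio above 0 in all 3.

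At the entry to the ER, SEC61B, a subunit of the translocon, measured 38.7 CPM in PF, 62.7 in PF+2%PEGDA and 50.4 in PF+3%PEGDA, against 93.6 CPM in 2D, and was lower in the PF EPCaT with a log2 ratio of -1.27. SSR1, a subunit of the translocon-associated complex, measured 206 CPM in PF, 255 in PF+2%PEGDA and 294 in PF+3%PEGDA, against 339 CPM in 2D, and was lower in none. With total counts, DNAJC10 and EDEM2 no longer passed the limit in PF, nor did EDEM2, SEC61B and SELENOS there once a trend with transcript length and GC content was removed. With that trend removed, ATF6, HSPA13, DNAJC3 and SSR1 passed it in PF, DNAJC10 in PF+2%PEGDA and CANX in PF+3%PEGDA.

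Several of the genes share sequence with others, and counts from an unstranded kit cannot separate genes on opposite strands. In GENCODE release 29, 36.5% of the 50-base words of PDIA3, 35.6% of PDIA6, 41.2% of PPIB, 31.3% of DNAJB11, 22.9% of OS9 and 89.5% of TXNDC5 also occur in another gene. The pseudogene PDIA3P1 measured 77.9 CPM in PF, 96.0 in PF+2%PEGDA and 104 in PF+3%PEGDA, against 300.4 CPM in 2D, and SNX22, which overlaps PPIB on the other strand, 4.62 CPM in PF, 6.69 in PF+2%PEGDA and 5.92 in PF+3%PEGDA, against 22.8 CPM in 2D. ATP6V1C2, which overlaps PDIA6, measured 6.41 CPM in PF, 7.27 in PF+2%PEGDA and 10.97 in PF+3%PEGDA, against 22.5 CPM in 2D. ELL3, which overlaps PDIA3 on the other strand, stood above 2D, at 6.77 CPM in PF, 6.05 in PF+2%PEGDA and 4.46 in PF+3%PEGDA, against 3.08 CPM in 2D. The read-through gene BLOC1S5-TXNDC5 had 1, 32 and 2 counts in PF, in PF+2%PEGDA and in PF+3%PEGDA and 7 in 2D. The levels of these 6 genes are therefore less certain, and 12 of the 30 tested genes with under 20% shared words were lower in all 3 EPCaTs.

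The promoter elements shown above were counted before all tested genes. Windows of 250 bases before the RefSeq start were at hand for 33 of the genes and for 11452 tested genes in all. A gene with several starts was counted where any of its windows held the element. ERSE occurred in 7 of the 33, against 0.140% of all tested genes with a window, and ERSE-II in 3 of the 33, against 0.122%. UPRE occurred in HYOU1, DNAJC10 and TXNDC5, against 0.978% of all. Among 15 genes with a window that were lower in all 3 EPCaTs, 8 held an ERSE or an ERSE-II, namely CALR, CRELD2, HERPUD1, HSP90B1, HSPA5, HYOU1, PDIA6 and SDF2L1. Among the other 18, CANX and XBP1 did. MANF, with the lowest ratios, held none of the 3 elements in its window, though it held CCACG, as did 14 of the 15, 12 of the other 18 and 50.7% of all tested genes with a window. A match of letters is a description and does not show binding, and these elements were defined in part on promoters of HSPA5, HSP90B1, HERPUD1 and CALR, so their presence there is known from earlier work.

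**Figure D3:**
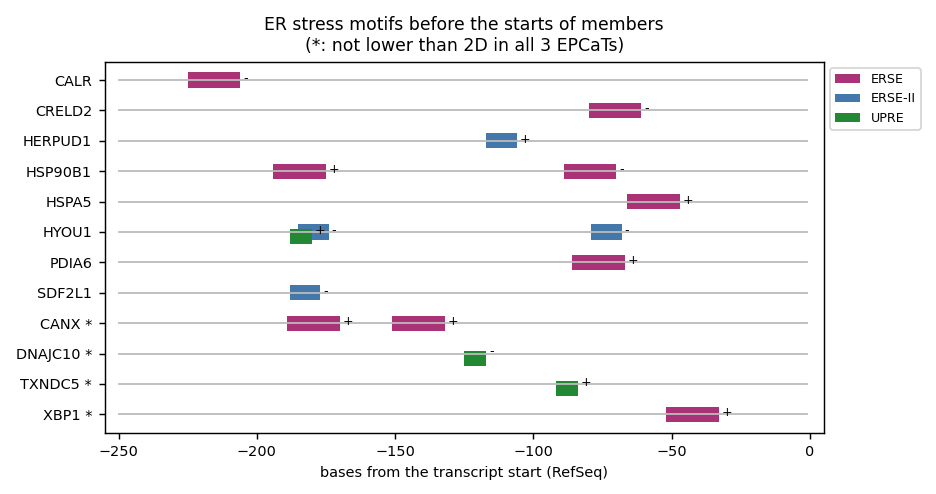
Position of ERSE, ERSE-II and UPRE matches (coloured boxes, with the strand of the match) in the 250 bases before the RefSeq start of 12 of the genes, with an asterisk on genes not lower in all 3 EPCaTs. Of the 12 genes with a match, 8 were lower in all 3 EPCaTs, and the HSPA5 and XBP1 elements lie nearest the start.

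Between EPCaTs, DNAJB9 was the 1 ER folding gene that passed 2-fold. In PF+3%PEGDA against PF, 1 of 36 was higher and 0 were lower, against 3.62% and 7.49% of all tested genes, so the share higher was close to the background. The median log2 ratio was 0.23, beside 0.00 over all tested genes, and 30 of 36 ratios were above 0. Scaled by total counts, 24 of 36 were above 0. In PF+2%PEGDA against PF, 0 were higher and 0 lower, against 2.98% and 5.47% of all tested genes, with a median of 0.21 and 28 ratios above 0. In PF+3%PEGDA against PF+2%PEGDA, 0 were higher and 0 lower, against 1.85% and 2.42%, with a median of 0.01 and 21 ratios above 0, or 16 with total counts. Of all tested genes, 50.2%, 50.4% and 49.5% were above 0 in these comparisons, in the order given. These shares were not computed with total counts.

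DNAJB9 stood at 50.3 CPM in PF+3%PEGDA, against 22.9 CPM in PF, a log2 ratio of 1.14 (0.95 to 1.32). The PF+2%PEGDA EPCaT, at 43.0 CPM, stood 0.91 (0.73 to 1.10) above PF. The next ratios of PF+3%PEGDA to PF were 0.62 for DERL2, 0.62 for XBP1 (0.54 to 0.70), 0.58 for CANX (0.54 to 0.62) and 0.56 for HERPUD1 (0.45 to 0.67). XBP1, CANX and P4HB, picked after their values were seen, were in order with PEGDA, lowest in PF, higher in PF+2%PEGDA and highest in PF+3%PEGDA. The same order held for HSPA5, HSPA13, DNAJB9, DNAJC10, PDIA3, PDIA4, PDIA6, TXNDC5, TXNDC11, ATF6, DERL1 and SSR1. For PDIA4, TXNDC5 and ATF6 the interval of PF+3%PEGDA against PF+2%PEGDA included equality. So did that of PF+2%PEGDA against PF for TXNDC11 (0.04, -0.13 to 0.21). Scaling by total counts moved the median of all genes by -0.03 and -0.07 in these comparisons, more than some of these steps. The share of all tested genes in this order was not computed. CALR, MANF, HYOU1 and HSP90B1 were not in this order, with ratios of PF+3%PEGDA to PF between -0.09 and 0.06. HSPA5 stood 0.38 above PF in PF+3%PEGDA and 0.02 (-0.02 to 0.05) from PF+2%PEGDA, where the interval includes equality.

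**Figure D4:**
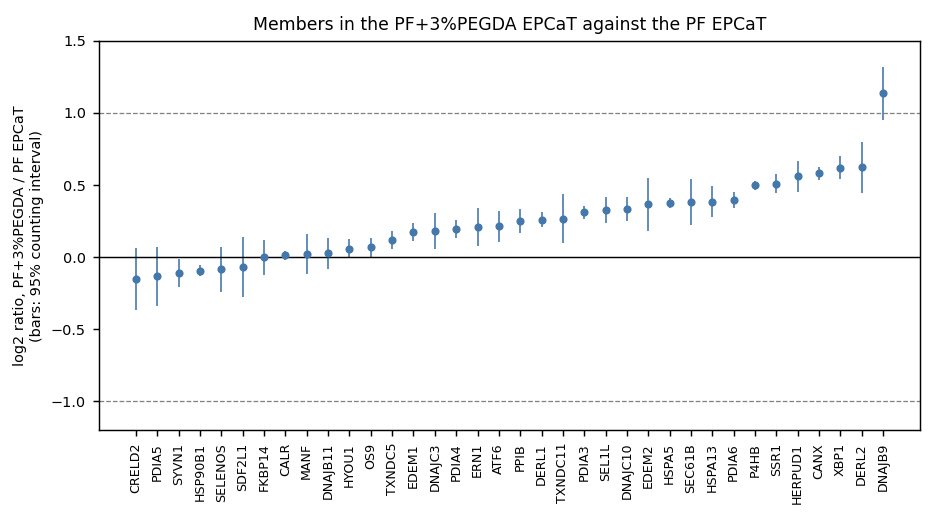
Log2 ratio of the PF+3%PEGDA EPCaT to the PF EPCaT (y axis) for the 36 tested genes in rising order, with bars for the exact 95% counting interval and dashed lines at 2-fold. DNAJB9 is the 1 point above the upper dashed line, at 1.14, and 30 of the points lie above 0.

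Genes of the same pathway outside the list were closer to 2D coculture. Of 133 tested, 17, 12 and 12 were lower in PF, in PF+2%PEGDA and in PF+3%PEGDA and 1, 2 and 5 were higher, against 12.3%, 9.65% and 10.7% of all tested genes lower and 16.2%, 12.3% and 11.8% higher, so the shares lower were near the background. The medians were -0.46, -0.23 and -0.18. In all 3 EPCaTs 9 were lower and 1 was higher, against 6.2% and 7.73% of all tested genes, and the share lower was again near the background. Of 8 tested genes of the PERK branch, 4 were among the 9, while EIF2AK3, the gene of PERK itself, stood above 2D without passing 2-fold, at 67.9 CPM in PF, 58.6 in PF+2%PEGDA and 66.8 in PF+3%PEGDA, against 35.7 CPM in 2D. TRIB3, a pseudokinase induced by ATF4 and CHOP, measured 244 CPM in PF, 359 in PF+2%PEGDA and 456 in PF+3%PEGDA, against 1848 CPM in 2D. CEBPB, a leucine zipper factor, measured 118 CPM in PF, 165 in PF+2%PEGDA and 156 in PF+3%PEGDA, against 576 CPM in 2D, and PPP1R15A, the phosphatase subunit that ends the response, 105 CPM in PF, 98.1 in PF+2%PEGDA and 69.6 in PF+3%PEGDA, against 353 CPM in 2D. The fourth was DDIT3, the gene of CHOP, named here after its values were seen, at 40.0 CPM in PF, 53.5 in PF+2%PEGDA and 47.4 in PF+3%PEGDA, against 112 CPM in 2D. The 7 genes of the ATF6 family and its proteases included the 1 gene higher in all 3, CREB3L1, a membrane-bound relative of ATF6, at 226 CPM in PF, 277 in PF+2%PEGDA and 273 in PF+3%PEGDA, against 94.1 CPM in 2D. Of the 7, 3 stood above 2D in all 3 EPCaTs and 4 below it in all 3. ATF6B, another of the 7, was lower in PF+2%PEGDA (-1.05) and in PF+3%PEGDA (-1.16).

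Among 12 other ER cochaperones, 2 were lower in all 3 EPCaTs. SERPINH1, the collagen chaperone HSP47, measured 86.2 CPM in PF, 123 in PF+2%PEGDA and 95.2 in PF+3%PEGDA, against 285 CPM in 2D. SIL1, which exchanges nucleotide on BiP, measured 4.62 CPM in PF, 3.35 in PF+2%PEGDA and 3.66 in PF+3%PEGDA, against 11.2 CPM in 2D. Of 6 other prolyl isomerases, FKBP11 and FKBP2 were lower in all 3. FKBP11 had only 35, 32 and 13 counts in PF, in PF+2%PEGDA and in PF+3%PEGDA, against 101 in 2D. It was also lower in PF+3%PEGDA than in PF (-1.11, -2.18 to -0.19) and than in PF+2%PEGDA (-1.08, -2.17 to -0.14). FKBP2 measured 21.5 CPM in PF, 21.9 in PF+2%PEGDA and 15.7 in PF+3%PEGDA, against 49.4 CPM in 2D. Of 22 other genes of translocation and signal peptide removal, SEC11C, a signal peptidase subunit, was the 1 lower in all 3, at 18.0 CPM in PF, 24.6 in PF+2%PEGDA and 32.2 in PF+3%PEGDA, against 74.6 CPM in 2D. SEC61G, a further subunit of the translocon, stood above 2D in every EPCaT and was higher in PF+2%PEGDA (1.13) and PF+3%PEGDA (1.31), whereas SEC61B lay below 2D in each.

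The remaining lists had 0 genes lower in all 3 EPCaTs. These were 14 other ER oxidoreductases, 10 genes of glycan trimming, 11 of the oligosaccharyltransferase, 23 other degradation genes and 20 of COPII export and KDEL receptors, with medians of the mean ratio between -0.43 and -0.09. ERO1A, which oxidises disulfide isomerase, measured 567 CPM in PF, 624 in PF+2%PEGDA and 737 in PF+3%PEGDA, against 318 CPM in 2D, and was higher in PF+3%PEGDA (1.21). DDOST, an oligosaccharyltransferase subunit, measured 188 CPM in PF, 230.5 in PF+2%PEGDA and 203 in PF+3%PEGDA, against 436 CPM in 2D, and was lower in PF and PF+3%PEGDA. SAR1A, the small GTPase that starts COPII coats, stood above 2D in each EPCaT without passing 2-fold, at 514 CPM in PF, 504 in PF+2%PEGDA and 571 in PF+3%PEGDA, against 313 CPM in 2D. AUP1, which assists the HRD1 complex, stood below 2D without passing it, at 135 CPM in PF, 157 in PF+2%PEGDA and 144 in PF+3%PEGDA, against 257 CPM in 2D.

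**Figure D5:**
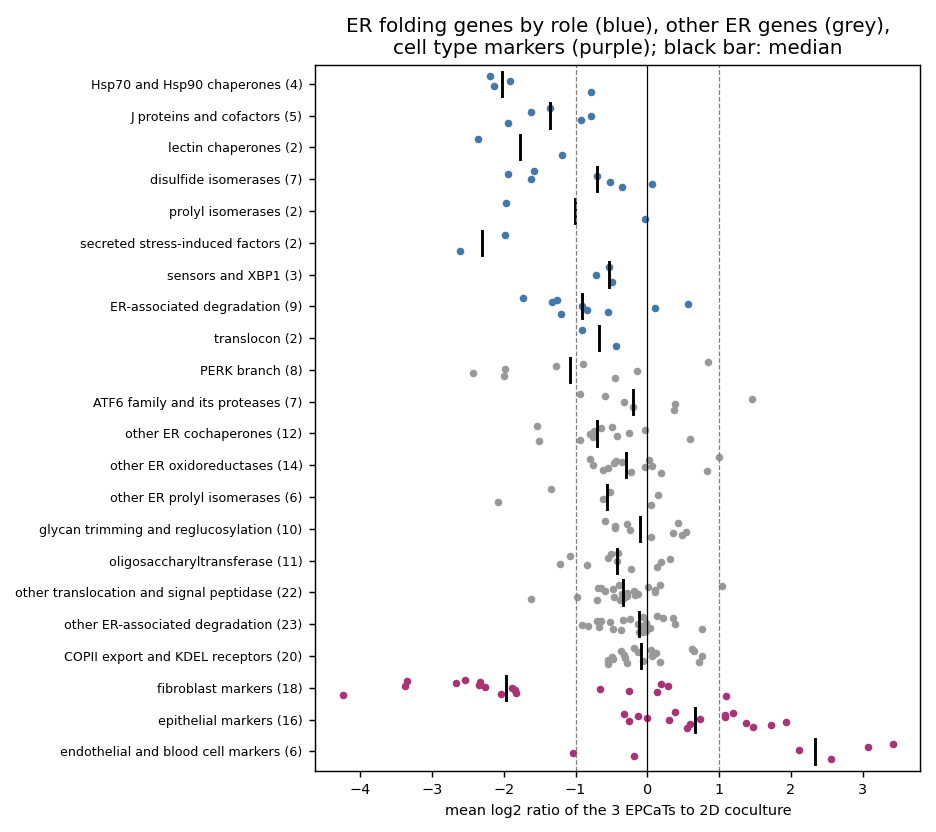
Mean log2 ratio of the 3 EPCaTs to 2D coculture (x axis) for each tested gene, by role (y axis, with the number of genes), in blue for the ER folding genes, grey for other ER genes and purple for cell type markers. Black bars are medians, dashed lines are 2-fold, and the medians of the fibroblast markers and of the Hsp70 and Hsp90 chaperones lie at -1.97 and -2.03.

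The marker genes of the 2 cell lines also differed between EPCaT and 2D. Of the 18 fibroblast markers summed above, 12 were lower in all 3 EPCaTs and 0 were higher in all 3. In each EPCaT taken alone 1 of the 18 was higher, and 2 lay above 2D in all 3 without passing 2-fold in every one. POSTN was at 0 in PF+2%PEGDA and PF+3%PEGDA. CTNNA1, which PC-3 cells have lost, measured 5.39 CPM in PF, 6.18 in PF+2%PEGDA and 8.26 in PF+3%PEGDA, against 33.3 CPM in 2D. Summed over 16 epithelial markers, the level was 6205, 6966 and 6532 CPM in the EPCaTs, against 4454 CPM in 2D, with 5 higher in all 3 and 0 lower. Of the 16, 2 lay below 2D in all 3 EPCaTs without passing 2-fold. Neither cell line is endothelial or blood-derived, and 9 markers of such cells summed to 313, 362 and 426 CPM in the 3 EPCaTs, against 159 CPM for 2D, with CLDN5 and VWF at 0 in 2D and CLDN5 at 0 in PF+2%PEGDA. The part of the epithelial, endothelial and blood cell markers was not tested either, and the share of fibroblasts and the culture format cannot be told apart in these libraries.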

How the data were processed

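The authors deposited 1 table of expected counts (estimated reads per gene, not scaled between libraries). The submitters' processing notes name FastQC, STAR, Partek and hg38; versions, annotation and counting method are not given in the sources used here. Per the labels' protocols, libraries were made with a TruSeq RNA v2 kit. Between 18.2% and 19.9% of values in a library were not whole (tolerance 0.01), and values were rounded. Scaling used the TMM method of edgeR 4.0.16, run under R 4.3.3. Ratios used a prior count of 0.5 and exact Clopper-Pearson 95% intervals, computed with scipy 1.17.1, numpy 2.4.6 and pandas 2.3.3 under Python 3.11.15 and tested on simulated data. Genes with at least 1 CPM in 1 library were tested.

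The genes, lists and rules were chosen with earlier results of these data known. Genes called in all 3 EPCaTs or between EPCaTs are given in all libraries, as are key sensors and chaperones; of other lists, up to 3 genes with at least 5 CPM, ranked by the interval bound nearest to 0. Symbols were matched to GENCODE release 29 (16628 of 17791 on the same chromosome), and promoters come from RefSeq on GRCh38.p14. Protein features were planned and not run, since no protein sequences were used here. Alternatives were other scalings (DESeq2 1.42.0 size factors, upper quartile, total counts), filters, prior count, rounding, call folds, removal of a length and GC trend, and leaving out genes with shared sequence, the last chosen after seeing the data.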

Additional observations from a re-analysis of the deposited data

How the results depend on the processing

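The 16 genes lower in all 3 EPCaTs were the same 16 under DESeq2 size factors, upper quartile scaling, both filters, a prior count of 5 and rounding down. Both filters kept all 36 genes, and the 16 had at least 312 counts in every library. The filters, the prior count and rounding down therefore could not have changed the 16. Total counts, which moved the median of all genes by 0.19, 0.12 and 0.09 in PF, in PF+2%PEGDA and in PF+3%PEGDA against 2D, left 14 without SEL1L and SELENOS, and removing the length and GC trend gave 16, without SELENOS and with CANX. At 1.5-fold 25 were lower in all 3, and at 4-fold 4. Shares of all tested genes were not computed at these folds, so the counts at 1.5-fold and 4-fold given here stand without a background. The count lower at 4-fold was 8 in PF, 4 in PF+2%PEGDA and 6 in PF+3%PEGDA. At 1.5-fold, 26 were lower and 1 higher in PF+3%PEGDA against 2D, 3 higher in PF+3%PEGDA against PF and 4 in PF+2%PEGDA against PF, and at 4-fold 0 were higher in PF+3%PEGDA against PF. The median in PF against 2D was -1.08 with total counts. In PF+2%PEGDA against 2D the median was -0.91 with total counts. Without a filter, which adds only DERL3 with its 1 count in 2D, it was -1.11. It was -1.14 with the trend removed and -0.87 without genes sharing at least 20% of their 50-base words. The cause of these last shifts was not tested. No direction was reversed for any of these genes whose ratio passed the 2-fold rule, in any alternative run. The other scalings moved all ratios of a comparison alike, by about 0.19 or less, and a change of call fold leaves ratios as they are. Neither could have reversed such a ratio, nor could the filters, the prior count, rounding or leaving out genes. This leaves the removal of the length and GC trend as the alternative that could have. Smaller ratios did change sign, with 30 of 36 above 0 in PF+3%PEGDA against PF and 24 with total counts. No paired analysis was possible because each group was 1 library. With 1 library per group, differences between cultures, pools and library preparations cannot be told apart from differences between groups.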

Other observations

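Among 8344 genes with a mean of at least 20 CPM, those whose levels followed HSPA5 most closely over the 4 libraries were DYRK3, CDC42EP1, CDH11, CEBPB and ASNS, measured as the Euclidean distance of log2 CPM centred on each gene's own mean. Their distances were 0.091 to 0.21. DYRK3, a kinase, measured 15.8, 19.2 and 20.8 CPM in PF, in PF+2%PEGDA and in PF+3%PEGDA, against 88.9 CPM in 2D. CDH11, a cadherin of mesenchymal cells, measured 99.4, 115 and 118 CPM in these EPCaTs, against 517 CPM in 2D. ASNS, asparagine synthetase, measured 35.4, 40.3 and 49.8 CPM in them, against 185 CPM in 2D. Among the ER folding genes the nearest were PPIB, HYOU1, PDIA4 and CALR, which ranked 7, 11, 16 and 20. With 4 libraries, 3 of which lie on the same side, such likeness is a description of these libraries.

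Of the 133 tested pathway genes outside the list, 2 were higher in PF+3%PEGDA than in PF, against 3.62% of all tested genes, and 1, FKBP11, was lower, against 7.49%. Both shares lie below the background. The 2 higher genes were picked after their values were seen. SELENOM, an ER selenoprotein, measured 119 CPM in PF+3%PEGDA and 113 CPM in PF+2%PEGDA, against 44.6 CPM in PF and 74.1 CPM in 2D. SSR4 measured 226 CPM in PF+3%PEGDA and 222 CPM in PF+2%PEGDA, against 107 CPM in PF and 243 CPM in 2D. Of 11 oligosaccharyltransferase genes, 10 had a ratio of PF+3%PEGDA to PF above 0 and 0 were higher, with a median of 0.21. Of all tested genes, 50.2% had such a ratio above 0.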
